A study of Mus musculus with 6 samples.

Results

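The STAT, JAK and SOCS genes described here are 9 genes of cytokine signalling: Stat2, Stat3, Stat5a, Stat5b, Stat6, Jak1, Jak2, Socs1 and Socs3. They were chosen by symbol from the mRNA table, with all transcripts of a symbol summed, and are 9 of its 21912 gene symbols. The table covers 6 libraries of mouse macrophages, 3 labelled M and 3 labelled control, in a series on foam cells made with oxidised low-density lipoprotein (ox-LDL), a modified lipoprotein that macrophages take up until they fill with lipid. The labels do not spell out M, so that M received ox-LDL is inferred from the word control on the other group, and the extraction text describes every library, controls included, as ox-LDL induced. The labels give no strain, age, genotype, source of the macrophages, dose or exposure time. They do not say whether libraries of a group were grown as separate cultures. The p-values therefore speak of the spread among the 6 libraries only, and that spread may be technical.

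Cytokine receptors without kinase activity of their own carry JAK kinases on their inner side. When a ligand joins the receptor chains, the JAKs phosphorylate them, STAT proteins dock on the phosphorylated chains, are phosphorylated in turn, pair up and enter the nucleus as transcription factors. SOCS genes are among the targets that STATs switch on, and their proteins block the JAKs or the receptor, closing a feedback loop. In macrophages STAT2 works with IRF9 downstream of type I interferon, STAT3 downstream of IL-10 and IL-6, STAT5 downstream of GM-CSF, and STAT6 downstream of IL-4.

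The regulatory sequence of the genes was taken from RefSeq windows of 300 bases, 250 before to 50 after a start site (build GRCm38.p6, not the build of the expression table). All 9 genes had a window, and Stat5a and Stat5b had 2 each, for 11 windows. The windows were searched for a STAT palindrome (TTCNNNGAA), its wider form preferred by STAT6 (TTC and GAA with 4 bases between them) and the core of the interferon-stimulated response element bound by complexes of STAT2 and IRF9 (GAAA and GAAA with 2 bases between them). Both strands were searched, and the palindromes read the same on each. Only Stat2, Socs1 and Socs3 held a match, and their windows are shown for that reason, 5′ to 3′ on the strand of the gene, with the matches in capitals. They lie at chr10:128270248-128270547 on the plus strand (Stat2), chr16:10785487-10785786 on the minus strand (Socs1) and chr11:117969317-117969616 on the minus strand (Socs3).
Stat2: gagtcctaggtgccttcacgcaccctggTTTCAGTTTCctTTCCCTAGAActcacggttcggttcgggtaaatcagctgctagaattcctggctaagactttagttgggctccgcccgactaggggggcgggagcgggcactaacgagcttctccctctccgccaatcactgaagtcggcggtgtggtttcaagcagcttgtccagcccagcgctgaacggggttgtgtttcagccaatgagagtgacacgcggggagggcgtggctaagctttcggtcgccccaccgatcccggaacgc
Socs1: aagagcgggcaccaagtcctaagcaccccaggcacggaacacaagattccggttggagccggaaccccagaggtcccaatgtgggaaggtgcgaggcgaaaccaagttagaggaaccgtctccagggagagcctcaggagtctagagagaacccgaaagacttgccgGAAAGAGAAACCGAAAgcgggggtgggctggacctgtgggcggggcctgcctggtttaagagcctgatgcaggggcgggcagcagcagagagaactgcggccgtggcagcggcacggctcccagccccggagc
Socs3: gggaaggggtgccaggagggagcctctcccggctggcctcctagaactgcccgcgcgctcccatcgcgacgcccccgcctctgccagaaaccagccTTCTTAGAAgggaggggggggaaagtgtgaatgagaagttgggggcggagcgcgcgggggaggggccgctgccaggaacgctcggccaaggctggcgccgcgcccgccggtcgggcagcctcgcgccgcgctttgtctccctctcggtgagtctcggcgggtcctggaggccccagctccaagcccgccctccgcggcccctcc

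In Stat2 the first capitals are a response element core on the reverse strand, TTTCAGTTTC, beginning 222 bases before the start site, and the second, TTCCCTAGAA, are the wider palindrome, 210 bases before it. In Socs1 the capitals are 2 overlapping response element cores, GAAAGAGAAA at 83 and GAAACCGAAA at 77 bases before the start site. In Socs3 they are the palindrome TTCTTAGAA at 154 bases before it. Of all 32851 RefSeq windows of this length, 3.44% held the response element core, 8.30% the palindrome and 6.95% the wider form. Of the 18 interferon targets (from the list described further on) that had a window, 11 held the response element core in one. That count is per gene, with any window of a gene sufficing, whereas the shares before it are per window. These matches describe the letters of the windows and do not show binding. The GC content of the 11 windows ran from 47.3% (Stat5b) to 82.7% (Stat5b, at its other start site).

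Values are FPKM, fragments scaled to transcript length and to library size, so levels of different genes are on one scale. That scale has a limit here, since the commonly abundant Gapdh averaged only 13.1 FPKM, and the order of levels that follows is the order in the deposited values. Stat6 was the most abundant of the 9, at 56.5 ± 0.627 FPKM in M and 46.6 ± 0.0306 in control (SD, n = 3 each, as for all such values here), followed by Jak1 at 42.9 ± 0.695 in M and 39.4 ± 0.873 in control. Neither overlapped the gene next to it in that order in either group. Jak2, Stat3, Stat5b, Stat5a and Stat2 formed a middle group, with library values between 7.57 and 14.7 FPKM in M and between 11.7 and 14.3 in control. Within it, Jak2 and Stat3 overlapped in both groups and Stat3 and Stat5b overlapped in control. Stat2 was the lowest of these 5 genes in all 3 M libraries and the highest of them in 2 of the 3 control libraries, control 1 and control 3. Socs3 lay below them, and Socs1 was under 1 FPKM in every library. The 5 STAT genes summed to 101 ± 1.73 FPKM in M and 97.0 ± 0.610 in control, the 2 JAK genes to 57.0 ± 0.680 in M and 51.7 ± 1.33 in control, and the 2 SOCS genes to 4.45 ± 0.455 in M and 6.71 ± 0.467 in control.

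**Figure D1:**
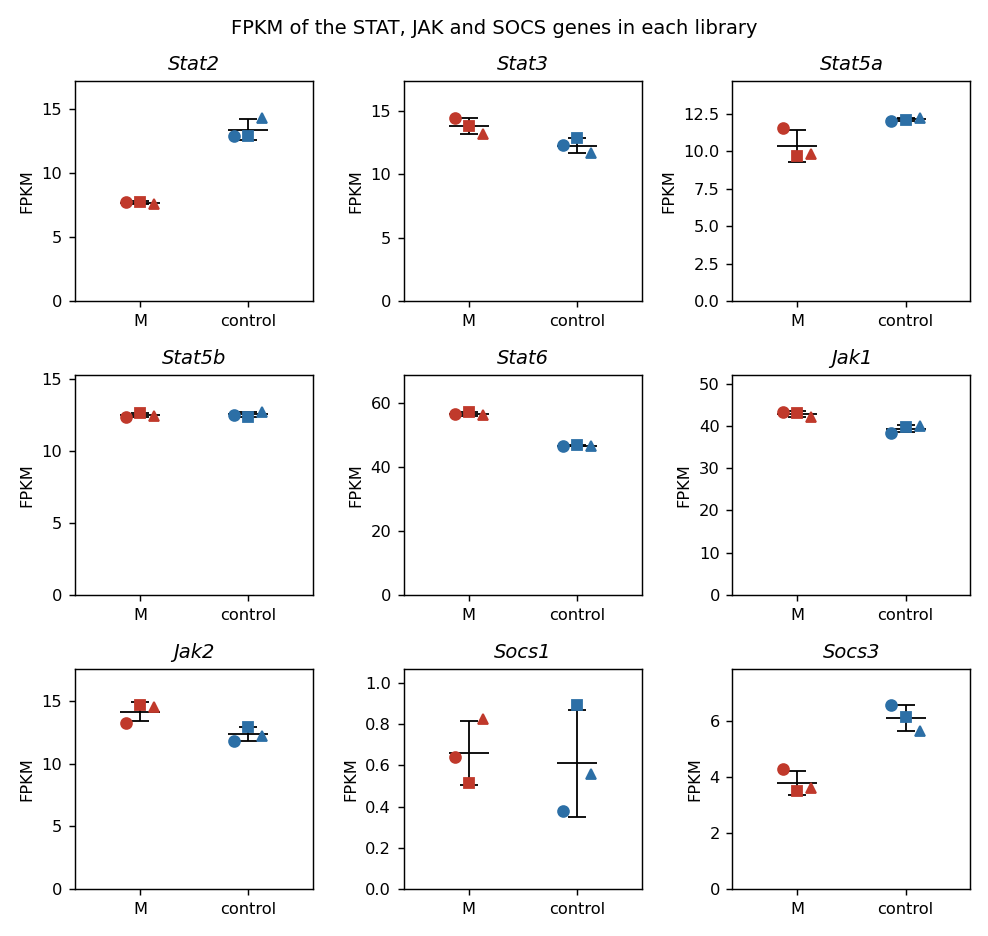
FPKM (vertical axes, each from 0 and scaled to its gene) of the 9 genes in the 3 M libraries (red) and the 3 control libraries (blue); circles, squares and triangles are libraries 1, 2 and 3, and bars are the mean and SD. Stat2 and Socs3 are lower in every M library than in any control library, Stat6 is higher, and Stat5b and Socs1 overlap.

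Genes averaging at least 1 FPKM over the 6 libraries were tested with limma on log2(FPKM + 1), and p-values were adjusted by Benjamini-Hochberg over all 10390 genes tested. Of the 9 genes 8 passed that filter. Of these, Stat6, Jak2, Stat3 and Jak1 were higher in M, Stat2, Socs3 and Stat5a were lower, and Stat5b was not called (adjusted p at or above 0.05). The shares of all tested genes called were 43.1% in either direction, 21.2% higher and 21.9% lower, and in 55.7% the groups did not overlap (27.6% with M higher and 28.1% with M lower), so a call or a gap between groups is common in this comparison and the sizes tell the genes apart better. By absolute log2 fold change Stat2 stood at the 94.1st and Socs3 at the 90.2nd percentile of all tested genes, Stat6 at the 69.9th, Stat5a at the 60.5th, Jak2 at the 54.4th, Stat3 at the 49.3rd, Jak1 at the 38.7th and Stat5b at the 2.06th. Called genes had a median absolute log2 fold change of 0.33, which only Stat2 and Socs3 of the 9 exceeded.

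**Figure D2:**
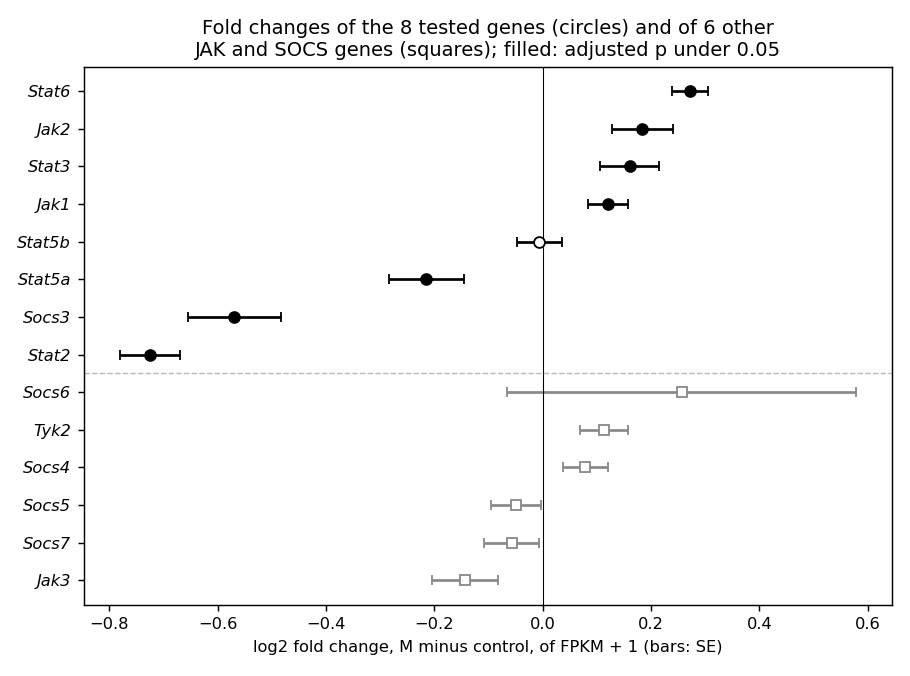
Log2 fold change, M minus control, on the log2(FPKM + 1) scale (horizontal axis; bars are the SE) for the 8 tested genes (circles) and 6 other tested JAK and SOCS genes (squares); filled symbols have an adjusted p under 0.05. Stat2 at -0.72 and Socs3 at -0.57 are the lowest circles, and all 6 squares are open.

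Stat2 (ENSMUSG00000040033; chromosome 10), the STAT particular to type I and type III interferon, fell. It was given as 7.77, 7.79 and 7.57 FPKM in M 1 to 3, against 12.9, 12.9 and 14.3 FPKM in control 1 to 3. The M libraries lay within a narrow band well below all the controls. The log2 fold change was -0.72 ± 0.0553 SE (limma adjusted p = 4.24e-05), and the M mean was 0.575 times the control mean. One of its 2 transcripts, ENSMUST00000105238, carried the whole signal and the other was listed at 0 in every library. The call held under all 16 alternatives tried.

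Irf9, the DNA-binding partner of STAT2, fell with it. It averaged 10.5 ± 0.638 FPKM in M and 24.8 ± 1.48 in control (log2 fold change -1.16 ± 0.0612 SE, limma adjusted p = 8.09e-06). Every M library was below every control library, as for Stat2. Irf9 is itself an interferon target and is counted again in the list that follows.

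Of 25 targets of type I interferon, 24 were in the table and 21 were tested. All 21 were lower in M and 0 were higher, also at an unadjusted limma p under 0.05, where 21.9% of all tested genes were called lower. Their median log2 fold change was -1.34, against -0.0057 over all tested genes. Ifi44, an interferon-induced cytosolic protein gene, averaged 9.27 ± 0.234 FPKM in M and 52.9 ± 5.39 in control (-2.39 ± 0.0701 SE, adjusted p = 4.71e-07). Oas2 and Oas3, synthetases of the RNA-degrading antiviral pathway, had log2 fold changes of -1.91 ± 0.0834 and -1.78 ± 0.0809 (adjusted p = 4.07e-06 and 4.36e-06). The 3 untested targets were low: Ifit1 at 0.263 FPKM in M and 1.43 in control, Ifit3 at 0.280 in M and 1.57 in control, and Mx1 at 0.0537 in M and 0.374 in control. The fall of Stat2 was smaller than that median.

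Plasmacytoid dendritic cells make interferon, and 7 of their markers were listed. Of these 3 were tested and 2 were lower in M, Bst2 (itself one of the interferon targets above) and Tcf4. The third, Cox6a2, was not called, at 18.7 FPKM in M and 21.7 in control with overlapping groups (limma adjusted p = 0.187). Of all tested genes 21.9% were lower. The summed level of the 7 was 99.8 to 108 FPKM in M and 143 to 167 in control, of which Bst2 gave 54.6 ± 4.51 in M and 98.6 ± 11.1 in control. Siglech, a defining surface lectin of these cells, averaged 0.172 ± 0.0257 FPKM in M and 1.195 ± 0.398 in control. Pacsin1 averaged 0.122 FPKM in M and 0.639 in control, and its groups did not overlap. Ccr9 was listed at 0 in all M libraries and averaged 0.00656 in control, and Klk1 was listed at 0 throughout. The part of these cells in the fall of Stat2 and its targets was not tested. In bulk RNA such as this, fewer cells of a type and less RNA per cell cannot be told apart.

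Targets of interferon gamma, whose signal does not need STAT2, went both ways. Of 16 listed 9 were tested, with 5 lower, 3 higher and a median of -0.20. The immunoproteasome subunit Psmb9 averaged 7.12 ± 0.278 FPKM in M and 14.0 ± 0.707 in control (-0.89 ± 0.0562 SE, limma adjusted p = 1.82e-05), and the peptide transporter gene Tap1 changed by -0.83 ± 0.0657 on the log2 scale (adjusted p = 5.03e-05). Cd274, which encodes the checkpoint ligand PD-L1, rose to 6.56 ± 0.430 FPKM in M, against 3.47 ± 0.151 in control (0.76 ± 0.0670, adjusted p = 8.40e-05). Of the untested members, Gbp2, a guanylate-binding protein gene, stood at 0.0326 FPKM in M and 0.291 in control, and Ciita, the regulator of class II MHC genes, at 0.0700 in M and 0.406 in control. Ido1 was listed at 0 in every library.

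Stat3 (ENSMUSG00000004040; chromosome 11), the STAT that carries the anti-inflammatory IL-10 signal in macrophages, was slightly higher in M. It was given as 14.5, 13.9 and 13.2 FPKM in M 1 to 3, against 12.3, 12.9 and 11.7 FPKM in control 1 to 3. The lowest M library was just above the highest control library. The log2 fold change was 0.16 ± 0.0549 SE (limma adjusted p = 0.0470). The call was lost without M 1 (adjusted p = 0.124), M 2 (0.106), control 1 (0.101) or control 3 (0.136), and over all alternatives the adjusted p ran from 0.0235 to 0.136.

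Of 19 listed STAT3 targets 18 were in the table and 16 were tested. Of these 12 were higher in M and 0 lower (1 at an unadjusted limma p under 0.05, Mcl1), with a median log2 fold change of 0.44. Over all tested genes 21.2% were higher and 21.9% lower, and the median was -0.0057. Socs3, which STAT3 also induces, is not on this list. Socs3 was lower in M (log2 fold change -0.57, limma adjusted p = 0.00124), so the count of 0 lower holds for the listed genes only. Nfil3, a leucine zipper repressor induced by IL-10, rose to 20.7 ± 1.53 FPKM in M, against 11.6 ± 0.220 in control (0.78 ± 0.0589 SE, limma adjusted p = 3.91e-05). The kinase gene Pim1, which is also a STAT5 target, had 17.8, 18.9 and 18.3 FPKM in M 1 to 3, against 12.9, 13.1 and 12.9 in control 1 to 3 (0.47 ± 0.0421, adjusted p = 9.27e-05). Myc, a growth-promoting transcription factor, averaged 2.39 ± 0.434 FPKM in M and 0.356 ± 0.110 in control (1.32 ± 0.120, adjusted p = 9.71e-05). Several genes of this list also respond to other stimuli, among them Vegfa and Hif1a to low oxygen and Cebpb and Bcl3 to inflammatory signals.

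Socs3 (ENSMUSG00000053113; chromosome 11), the inhibitor that STAT3 induces and that acts on receptors of the IL-6 family, went the other way. It was given as 4.28, 3.50 and 3.61 FPKM in M 1 to 3, against 6.55, 6.14 and 5.62 FPKM in control 1 to 3. All M libraries lay below all control libraries. The log2 fold change was -0.57 ± 0.0850 SE (limma adjusted p = 0.00124), and the M mean was 0.622 times the control mean. It has 1 transcript in the table, and the call held under all 15 alternatives that kept the gene; a filter at a mean of 5 FPKM removed it.

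Socs1 (ENSMUSG00000038037; chromosome 16), the inhibitor of JAKs that restrains interferon signalling, averaged under the filter and was not in the fit. It was given as 0.640, 0.516 and 0.822 FPKM in M 1 to 3, against 0.379, 0.891 and 0.558 FPKM in control 1 to 3. The groups overlapped, with control 2 the highest library and control 1 the lowest. An exact two-sided permutation test of the 3 M against the 3 control libraries gave p = 0.8 on log2(FPKM + 1), where 0.1 is the smallest value that this design allows. The ratio of Socs1 to Socs3 was 0.149, 0.148 and 0.228 in M 1 to 3, against 0.0578, 0.145 and 0.0992 in control 1 to 3. It was higher in each M library than in any control library, though M 2 exceeded control 2 narrowly (exact permutation p = 0.1, the smallest possible).

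The other SOCS genes passed no test. Socs4, Socs5, Socs6 and Socs7 were not called, with log2 fold changes of 0.078, -0.049, 0.26 and -0.057 and adjusted p of 0.162, 0.420, 0.562 and 0.398 in limma. Socs6 was uneven within the groups, at 5.57, 9.43 and 9.38 FPKM in M 1 to 3, against 3.98, 8.25 and 8.05 in control 1 to 3, so that its fold change has the widest error of the family, an SE of 0.321. Cish and Socs2, which STAT5 induces, were near 0: Cish averaged 0.0516 FPKM in M and 0.0679 in control, and Socs2 0.0303 in M and 0.00713 in control. Of the 4 subunits of the ubiquitin ligase that SOCS proteins recruit (Tceb1, Tceb2, Cul5 and Rnf7), 0 were called by limma and 0 had an unadjusted p under 0.05. Tceb2, the most abundant of them, averaged 87.4 ± 2.52 FPKM in M and 88.6 ± 5.40 in control (log2 fold change -0.018 ± 0.0511 SE, adjusted p = 0.804).

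Stat5a and Stat5b encode closely related proteins that respond to GM-CSF, prolactin and growth hormone, and the table gave them different results. Stat5a (ENSMUSG00000004043) was given as 11.6, 9.66 and 9.81 FPKM in M 1 to 3, against 12.0, 12.1 and 12.2 FPKM in control 1 to 3. M 2 and M 3 were well below the tightly grouped controls and M 1 was only just below them. The log2 fold change was -0.21 ± 0.0692 SE (limma adjusted p = 0.0380). Stat5b (ENSMUSG00000020919) was given as 12.4, 12.7 and 12.5 FPKM in M 1 to 3, against 12.6, 12.4 and 12.8 FPKM in control 1 to 3. The groups overlapped and the log2 fold change was -0.0060 ± 0.0421 SE (adjusted p = 0.921). The ratio of Stat5a to Stat5b was 0.930, 0.761 and 0.787 in M 1 to 3, against 0.959, 0.975 and 0.958 in control 1 to 3, lower in each M library than in any control library (exact permutation p = 0.1, the smallest possible). Because the genes are so alike, reads may have been split between them in ways that the deposited values do not show.

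The transcripts of the pair were less steady than the sums. The main Stat5a transcript, ENSMUST00000107357, was given as 0, 7.46 and 6.44 FPKM in M 1 to 3, against 9.16, 8.81 and 9.74 FPKM in control 1 to 3. In M 1 the second transcript, ENSMUST00000004145, stood at 8.90 FPKM, against 2.08 and 3.22 in M 2 and M 3 and 2.21 to 2.80 in control. The third, ENSMUST00000138083, stood at 2.66 FPKM in M 1 and at most 0.498 in any other library. M 1 therefore had a different make-up of the Stat5a sum from every other library, while its total was the M total nearest to control. Without M 1 the log2 fold change of the Stat5a sum was -0.29 (limma adjusted p = 0.00429). The call was lost without M 2 (adjusted p = 0.117), M 3 (0.114), control 1 (0.0829), control 2 (0.0796) or control 3 (0.0916), and over all alternatives the adjusted p ran from 0.00429 to 0.286.

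The 2 Stat5b transcripts also traded shares between libraries with no change in the sum. ENSMUST00000004143 made up 82.5%, 66.4% and 36.2% of the Stat5b FPKM in M 1 to 3, against 57.9%, 77.2% and 83.7% in control 1 to 3. The groups overlapped widely, and neither transcript was called (limma adjusted p = 0.599 and 0.676). For Stat3, ENSMUST00000103114 made up 46.1%, 57.7% and 55.4% in M 1 to 3, against 53.2%, 48.5% and 54.5% in control 1 to 3. Of its 3 transcripts above 0 none was called by limma (0 at an unadjusted p under 0.05 as well), the lowest adjusted p being 0.197. Across the 9 genes the table lists 21 transcripts, of which 4 were listed at 0 in every library and 12 averaged at least 1 FPKM and were tested. Of these 12, 2 were higher in M (the main transcripts of Stat6 and Jak1) and 2 lower (those of Stat2 and Socs3), where 18.7% of all 16851 tested transcripts were called.

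**Figure D3:**
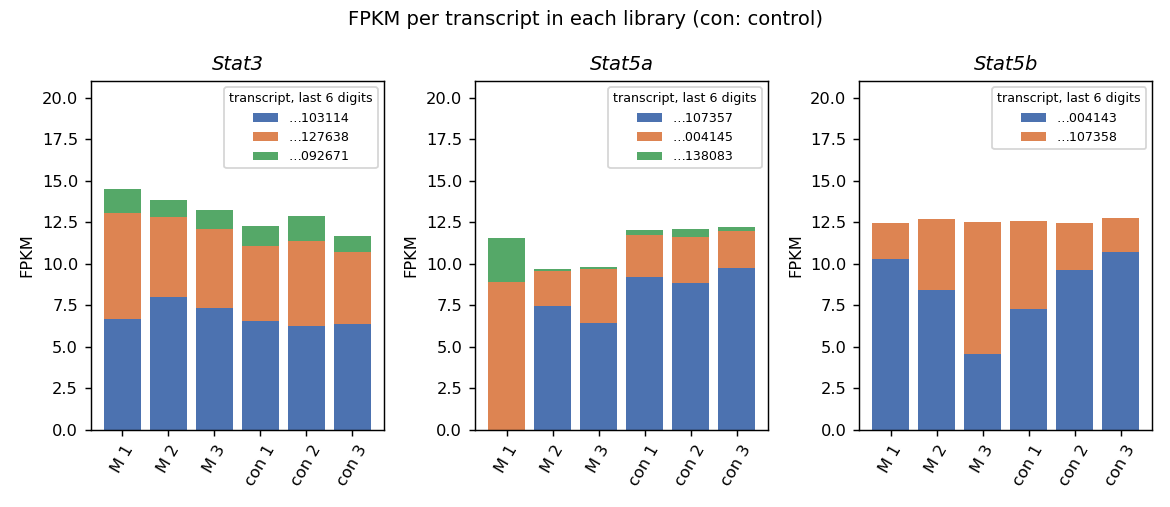
FPKM per transcript (stacked bars, vertical axis from 0) of Stat3, Stat5a and Stat5b in M 1 to 3 and control 1 to 3 (con), with transcripts named by their last 6 digits. The main Stat5a transcript is listed at 0 in M 1 alone, while the Stat5b bars keep nearly the same height with different shares.

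Of 12 listed STAT5 targets 9 were tested, with 4 higher in M and 0 lower (1 at an unadjusted limma p under 0.05, Mcl1), and a median log2 fold change of 0.031. By comparison, 43.1% of all tested genes were called, 21.2% as higher. Besides Pim1, the transcriptional repressor Bcl6 averaged 15.5 ± 0.409 FPKM in M and 10.3 ± 0.460 in control (0.55 ± 0.0498 SE, limma adjusted p = 9.90e-05). The cytokine gene Osm, which encodes oncostatin M, averaged 4.29 ± 0.477 FPKM in M and 2.46 ± 0.225 in control (0.61 ± 0.0890, adjusted p = 0.00109). The cyclin gene Ccnd1 and the survival gene Bcl2l1 were near 0 change, at 0.022 and 0.031.

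Stat6 (ENSMUSG00000002147; chromosome 10), the STAT of IL-4 and IL-13 and of alternative macrophage activation, rose. It was given as 56.3, 57.2 and 56.0 FPKM in M 1 to 3, against 46.6, 46.6 and 46.6 FPKM in control 1 to 3. The libraries within each group were nearly identical and the groups were far apart for that spread. The log2 fold change was 0.27 ± 0.0325 SE (limma adjusted p = 4.00e-04), and the M mean was 1.21 times the control mean. Nearly all of it came from ENSMUST00000092074, with the second transcript at 0.321 FPKM in control 2 and listed at 0 elsewhere. The call held under all 16 alternatives.

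STAT6 targets were mostly too low to test. Of 17 listed, 11 averaged under 1 FPKM, and 5 of those (Arg1, Chil3, Retnla, Ccl17 and Ch25h) were listed at 0 in every library. Of the 6 tested, 3 were higher in M and 0 lower (1 at an unadjusted limma p under 0.05, Klf4), with a median log2 fold change of 0.43. By comparison, 21.2% of all tested genes were higher. Among the untested targets, Mgl2 averaged 0.489 FPKM in M and 0.175 in control, and Pparg 0.238 in M and 0.467 in control. Tgm2, a transglutaminase, averaged 10.2 ± 1.01 FPKM in M and 1.46 ± 0.285 in control (2.18 ± 0.107 SE, limma adjusted p = 5.87e-06). The lectin gene Clec10a averaged 10.2 ± 0.210 FPKM in M and 6.75 ± 0.809 in control (0.53 ± 0.0800, adjusted p = 0.00125). Il4ra, the receptor chain on which STAT6 docks and itself a STAT6 target, was given as 5.42, 3.83 and 6.55 FPKM in M 1 to 3, against 2.96, 3.61 and 2.53 in control 1 to 3 (0.62 ± 0.176, adjusted p = 0.0269). M 2 was only just above the highest control library. Il4ra is also counted among the STAT3 targets and the receptor chains.

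Jak1 (ENSMUSG00000028530; chromosome 4), the kinase shared by interferon, gp130 and common gamma chain receptors, was higher in M by a small amount. It was given as 43.4, 43.1 and 42.1 FPKM in M 1 to 3, against 38.4, 39.8 and 39.9 FPKM in control 1 to 3. The groups did not overlap, and the log2 fold change was 0.12 ± 0.0365 SE (limma adjusted p = 0.0302). The call was lost without M 1 (adjusted p = 0.0700), M 2 (0.0925), control 1 (0.0967) or control 3 (0.0531), and over all alternatives the adjusted p ran from 0.0171 to 0.110.

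Jak2 (ENSMUSG00000024789; chromosome 19), the kinase of the GM-CSF, erythropoietin and interferon gamma receptors, was also higher. It was given as 13.3, 14.7 and 14.5 FPKM in M 1 to 3, against 11.8, 12.9 and 12.2 FPKM in control 1 to 3. M 1 lay close above the highest control library. The log2 fold change was 0.18 ± 0.0567 SE (limma adjusted p = 0.0322), and 97.9% to 98.8% of its FPKM in M and 98.6% to 98.9% in control came from ENSMUST00000065796. The call was lost without M 2 (adjusted p = 0.102), M 3 (0.0968), control 1 (0.1003) or control 3 (0.0803), and over all alternatives the adjusted p ran from 0.0182 to 0.102. The other JAKs were not called: Tyk2, the partner of JAK1 at the type I interferon receptor, averaged 31.8 ± 0.479 FPKM in M and 29.3 ± 1.30 in control (0.11, adjusted p = 0.0699), and Jak3, the kinase of the common gamma chain, 5.75 ± 0.197 in M and 6.46 ± 0.373 in control (-0.14, adjusted p = 0.0967).

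**Figure D4:**
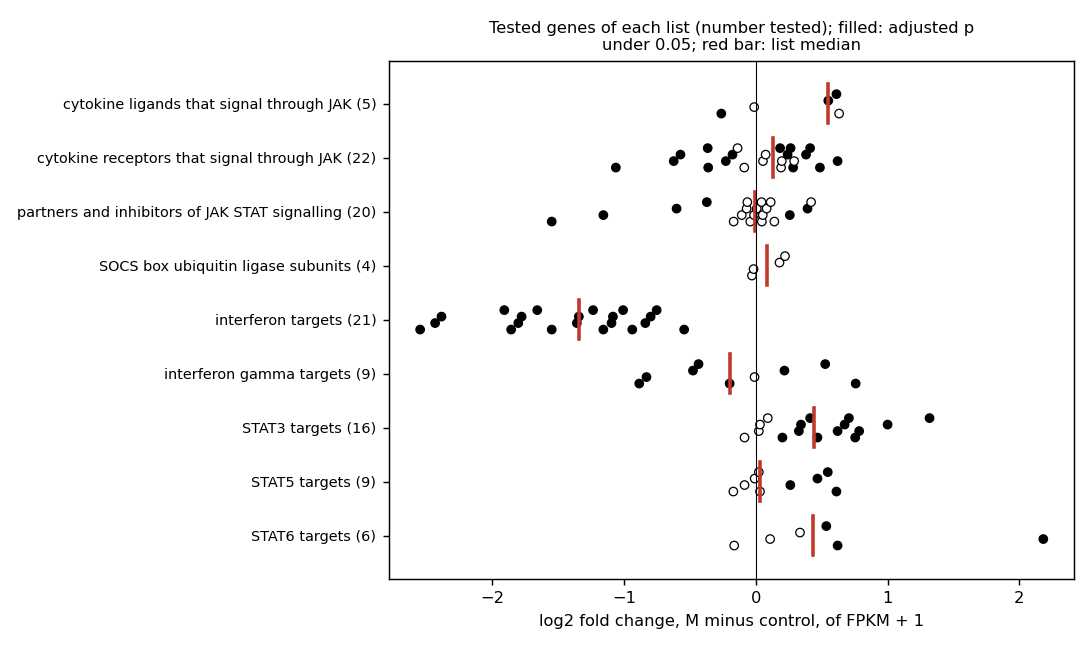
Log2 fold change, M minus control, on the log2(FPKM + 1) scale (horizontal axis) of the tested genes of each list of the pathway, with the number tested in brackets; filled circles have an adjusted p under 0.05 and red bars are list medians. All 21 interferon targets lie below 0, and 12 of the 16 STAT3 targets are filled and above 0. Socs3 is not on the STAT3 list.

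Most ligands of these receptors were low in both groups. Of 31 listed, 26 averaged under 1 FPKM and 14 of those were listed at 0 in every library, among them Ifng, Il4, Il13 and Csf2. Ifnb1, the interferon that macrophages can make themselves, was given as 0.0149, 0.0203 and 0 FPKM in M 1 to 3, against 0, 0 and 0.217 in control 1 to 3. Its groups overlapped, and its control level came from control 3 alone. Ifna2, Ifna4 and Ifna5 were listed at 0. Of the 5 tested, 2 were higher in M and 1 lower, where 43.1% of all tested genes were called. Besides Osm, Ebi3, a subunit of IL-27, rose to 30.1 ± 1.42 FPKM in M, against 20.3 ± 2.24 in control (0.55 ± 0.0769 SE, limma adjusted p = 8.85e-04). Il27, the gene of the other subunit, was not called, at 1.02 FPKM in M and 1.04 in control (adjusted p = 0.936). Il15, a ligand for the common gamma chain, averaged 3.30 ± 0.217 FPKM in M and 4.15 ± 0.0423 in control (-0.26 ± 0.0660, adjusted p = 0.0143).

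Receptor chains went both ways. Of 34 listed 22 were tested, with 8 higher, 7 lower and a median log2 fold change of 0.13. Among all tested genes 21.2% were higher and 21.9% lower. Within the IL-10 receptor, Il10ra, the ligand-binding chain, was given as 23.7, 23.0 and 24.2 FPKM in M 1 to 3, against 36.9, 38.5 and 35.4 in control 1 to 3 (-0.62 ± 0.0447 SE, limma adjusted p = 3.17e-05). Its partner chain Il10rb averaged 48.0 ± 0.857 FPKM in M and 39.8 ± 0.459 in control (0.26 ± 0.0347, adjusted p = 6.46e-04). Lifr, the receptor for leukaemia inhibitory factor, averaged 0.386 ± 0.0639 FPKM in M and 1.89 ± 0.0648 in control (-1.06 ± 0.0834, adjusted p = 4.84e-05).

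Of 20 partners and inhibitors of the pathway, all tested, 2 were higher and 4 lower, and 14 were not called. By comparison, 43.1% of all tested genes were called. Usp18, which blocks the type I interferon receptor and is an interferon target too, averaged 9.22 ± 1.58 FPKM in M and 28.7 ± 1.86 in control (-1.55 ± 0.113 SE, limma adjusted p = 5.92e-05). The tyrosine phosphatase gene Ptpn6, which encodes SHP-1, averaged 93.0 ± 3.63 FPKM in M and 142 ± 8.44 in control (-0.60 ± 0.0535, adjusted p = 8.57e-05). With Irf9, these were the 3 partners with the smallest adjusted p.

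The genes whose profile over the 6 libraries was most like that of Stat2 and Stat6, the lowest and highest of the 9 by fold change, were found among 9923 named tested genes as those with the smallest root mean square difference in centred log2(FPKM + 1). For Stat2 they were Nup85 (difference 0.0203), Bard1 (0.0297) and Dyrk3 (0.0319), with log2 fold changes of -0.72, -0.75 and -0.75. For Stat6 they included Il10rb (0.0140) and Spg21 (0.0166), with log2 fold changes of 0.26 and 0.26. With 2 groups of 3 libraries this likeness rests mainly on the size of the group difference.

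By position, Stat5b, Stat5a and Stat3 are consecutive protein-coding genes on chromosome 11 in the RefSeq order, and Socs3 lies elsewhere on that chromosome. The 3 neighbours had log2 fold changes of -0.0060, -0.21 and 0.16. Stat2 and Stat6 are both on chromosome 10 but are not neighbours there, and they moved in opposite directions.

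The summed mRNA values of the libraries were 375467 to 390581 FPKM, which do not measure library size because FPKM are already scaled to it. Setting these sums equal gave 2521 genes higher in M and 1974 lower in limma, against 2206 and 2274 without it. Depth in reads is not given, and steps among low values put the relative depth of the other libraries at 0.878 to 1.03 times that of control 1, resting on 10 to 22 of 282 to 322 single-transcript genes each. Because of the low Gapdh value, a value of 0 is reported as listed at 0. Macrophage markers were high: 11 of 12 were tested, with 5 higher and 1 lower in M, where 21.2% of all tested genes were higher and 21.9% lower. Their sum was 8251 to 8496 FPKM in M and 6583 to 6957 in control. Most of it was Lyz2, which averaged 6069 in M and 4610 in control. Mertk was the marker at a low level (0.127 in M and 0.128 in control). Summed neutrophil markers reached at most 0.930 FPKM in M and 0.191 in control, and those of fibroblasts and endothelium at most 0.411 in M and 0.518 in control. Conventional dendritic cell markers summed to 4.61 to 5.44 in M and 7.45 to 8.20 in control, B cell markers to 18.3 to 18.8 in M and 24.7 to 27.4 in control (nearly all Blnk), and T and NK cell markers to 3.65 to 3.85 in M and 2.26 to 2.69 in control (nearly all Lck). The part of these levels in the results was not tested.

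**Figure D5:**
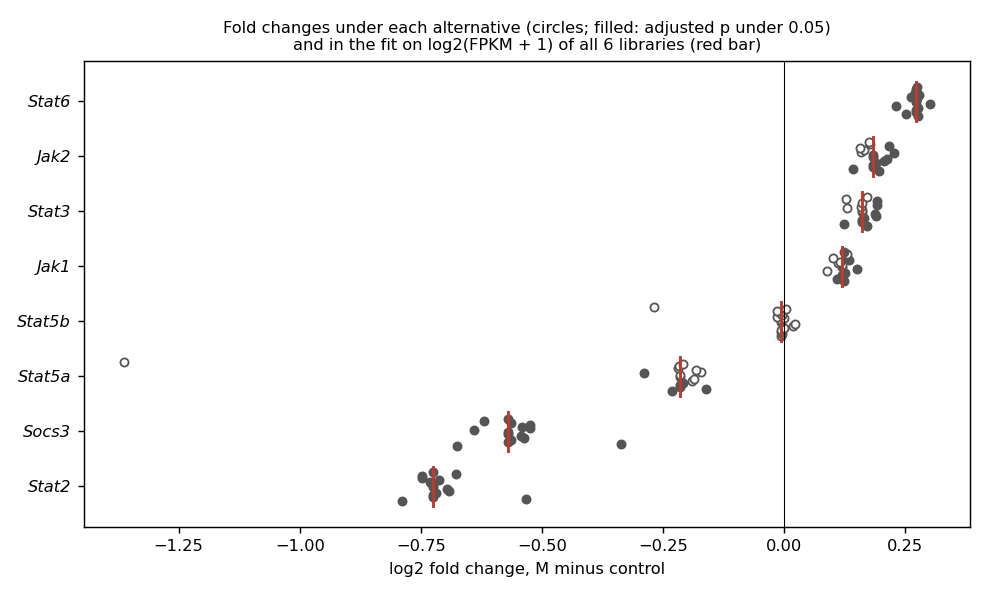
Log2 fold change, M minus control (horizontal axis), of the 8 tested genes in the fit described here (red bars) and under each alternative (circles, filled where the adjusted p is under 0.05). Stat2, Socs3 and Stat6 stay filled throughout, Stat3, Jak1, Jak2 and Stat5a are filled under some alternatives only, and the circle at -1.36 is Stat5a from its most abundant transcript.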

How the data were processed

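The mRNA table was used. It holds values the authors deposited as FPKM for 50687 Ensembl transcripts; the build named in the submitters' processing notes is mm9. TruSeq libraries were made from total RNA, per the labels' protocols. Aligner, quantifier, annotation release, strand handling and filters were not given in the sources used here. A second table, of lncRNA, was not used. Transcripts were summed per symbol, genes averaging at least 1 FPKM were kept, and log2(FPKM + 1), which understates changes of low genes, was fitted with limma 3.58.1 in R 4.3.3 (trend, robust, group only, two-sided, Benjamini-Hochberg over all genes or transcripts; called at an adjusted p under 0.05). The method was tested on simulated data. The genes, the lists and the rules were chosen with earlier results of these data known. Named in each list were up to 3 called genes of smallest adjusted p, or the most abundant tested gene; other genes named were chosen after their values were seen. Some genes that this rule covers are not reported here. Alternatives covered pseudocount, filter, scaling, variance model, replicate block, transcript choice and leaving out each library.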

Additional observations from a re-analysis of the deposited data

How the results depend on the processing

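Stat2, Socs3 and Stat6 kept their direction and their call under every alternative that gave a value (16, 15 and 16), with log2 fold changes of -0.79 to -0.53, -0.67 to -0.34 and 0.23 to 0.30. Of the 9 genes, 7 were called in the fit described above and 3 to 6 when 1 library was left out; 3 were called without M 2, control 1 or control 3. The calls that went were those of Stat3, Stat5a, Jak1 and Jak2; the cause was not tested. Leaving out 1 library gave 0.13 to 0.19 for Stat3, -0.29 to -0.17 for Stat5a, 0.10 to 0.13 for Jak1 and 0.16 to 0.23 for Jak2. With no filter, Stat3 (0.16, adjusted p = 0.0635) and Stat5a (-0.21, 0.0629) were no longer called. Without trend and robust settings Stat3 was not called (0.16, 0.0509). Quantile normalization ended the calls of Stat5a (-0.19, 0.0520) and Jak1 (0.089, 0.110), and equal FPKM sums that of Stat5a (-0.19, 0.0574). From the most abundant transcript alone 4 genes were called, without Stat3 (0.17, 0.118), Jak2 (0.18, 0.0550) and Stat5a (-1.36, 0.286), whose main transcript is listed at 0 in M 1. Stat5b, never called, was 0.019 with quantile normalization, 0.022 with equal FPKM sums and -0.015 to 0.0037 with 1 library left out. Same-numbered M and control libraries did not deviate together (r from -0.035 to 0.066; 1 of the 3 numbers correlated best with itself), so the numbers were not taken as pairs. With the replicate number as a block, 4 genes were called, the estimates being the same for Stat3 (0.16, 0.0505), Stat5a (-0.21, 0.0507) and Jak1 (0.12, 0.0612), and 1580 transcripts against 3158 without the block. Leaving out 1 library gave 2011 to 2552 transcripts, the fewest without M 2, and 2102 without M 3. Gene calls over the whole table ran from 3468 to 4531, against 4480. The log2 ratio of Stat5a to Stat5b from the most abundant transcripts is undefined in M 1, where that of Stat5a is listed at 0, and was not tested. FPKM carry no read counts, so no counting error could be given.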

Other observations

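Among the receptor chains for GM-CSF, which signals through JAK2 and STAT5, Csf2ra (log2 fold change 0.18, limma adjusted p = 0.00696) and Csf2rb (0.38, 7.21e-04) were higher in M. Csf2 was listed at 0 in every library. Csf2rb2, a separate gene that is not counted here as a GM-CSF chain, was also higher (0.41, 0.00188). Csf2rb and Csf2rb2 are near-identical copies, so the split of reads between them is uncertain. Il6ra, the IL-6 binding chain, averaged 34.9 FPKM in M and 45.3 in control (-0.37, adjusted p = 0.00124), and its signalling partner Il6st 33.1 in M and 35.3 in control (-0.088, 0.148). These genes were chosen after their values were seen.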
